A study of Mus musculus with 18 samples.

Results

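The major urinary proteins (Mup) were followed in mouse liver through the 10 Mup genes with the highest mean expression, out of 21 rows of the expression table whose symbol is Mup and a number, and out of 19057 genes in all. The 10 genes, in order of mean level over 18 libraries, were Mup1, Mup10, Mup9, Mup7, Mup3, Mup2, Mup17, Mup20, Mup11 and Mup15. They were chosen by level, so their rank is a description and not a result. Mup15, the last gene taken, had a mean of 2071 RPKM (reads corrected for gene length and library size), and Mup19, the next one down, had 2048 RPKM.

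Liver RNA was sequenced from ICR mice, an outbred stock, at 10 weeks of age in 6 groups of 3 libraries. Con mice had a regular diet and saline, and HS mice had a high-fat diet and streptozotocin (STZ), a compound toxic to insulin-producing cells, which together serve as a model of type 2 diabetes. A10-FMT and Con-FMT mice had the same diet and STZ and then received gut microbiota, A10-FMT from donors dosed with 10 mg/kg alginate oligosaccharide (AOS) and Con-FMT from control donors, and the material of each donor group was pooled. A10 and HS+A10 are known from the sample labels alone, as AOS at 10 mg/kg without and with the high-fat diet and STZ. The methods state that male mice were used. The labels do not say whether each library came from a separate mouse, so the p-values measure the spread between libraries, which may be technical.

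Major urinary proteins are small lipocalins, barrel-shaped carriers with a pocket for fatty or volatile ligands. The liver secretes them into blood, and in male mice they pass into urine, where they hold and release pheromones and mark individual identity. Their genes are more active in male than in female liver, and pulsed growth hormone acting through its receptor and STAT5, with androgen, thyroid hormone and glucocorticoid, is known to maintain them. Mup20 encodes darcin, a protein that is itself a male pheromone, and the product of Mup1 has been studied as a circulating regulator of glucose and lipid metabolism.

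The Mup genes are close copies of each other, and this bears on every value that follows. In GENCODE M21 (GRCm38, the build that the submitters' processing notes name as mm10) all 21 lie on chromosome 4 between positions 59956804 and 62150863, a span of 2.19 megabases, and the 10 genes studied here are all protein-coding genes on the minus strand with 7 exons each. Mup7 (60066469 to 60070475), Mup2 (60135932 to 60154289), Mup9 (60418046 to 60421952), Mup1 (60498012 to 60501960) and Mup10 (60578260 to 60582199) lie in that order, with Mup17 (61591929 to 61595871), Mup20 (62050234 to 62054158) and Mup3 (62083476 to 62087342) beyond them. The coding sequences of Mup1, Mup10, Mup9, Mup7, Mup2, Mup17, Mup11 and Mup15 differed from each other at 2 to 9 positions of about 540 (98.3% to 99.6% identity over 28 pairs). Mup20 was 90.1% to 91.3% identical to those 8 genes, and Mup3 82.1% to 83.3%. A stretch of the third coding exon is shown for 1 gene of each kind because it holds the most differences among the 10. Capitals mark bases that differ from the commonest base of the 10 genes at that position. It lies at chr4:60580693-60580752 in Mup10, chr4:60500453-60500512 in Mup1, chr4:62052650-62052709 in Mup20 and chr4:62085973-62086032 in Mup3, and the sequences are given on the minus strand, 5′ to 3′.
Mup10: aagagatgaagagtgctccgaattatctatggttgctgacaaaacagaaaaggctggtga
Mup1: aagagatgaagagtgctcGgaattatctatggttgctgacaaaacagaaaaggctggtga
Mup20: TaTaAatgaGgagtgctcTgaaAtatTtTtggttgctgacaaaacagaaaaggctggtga
Mup3: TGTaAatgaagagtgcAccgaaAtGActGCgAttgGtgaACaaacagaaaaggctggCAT

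Over these 60 bases Mup9, Mup7 and Mup17 have the Mup10 sequence, and Mup2, Mup11 and Mup15 have the Mup1 sequence. A read can be placed on 1 gene only where that gene is unique. Of all stretches of 50 bases in a reference transcript, 84.4% were unique to the gene for Mup3 and 49.5% for Mup20. The share was 21.9% for Mup17, 13.8% for Mup10, 7.85% for Mup9, 5.24% for Mup1, 3.65% for Mup7 and 0 for Mup2 and Mup15, with Mup11 between Mup10 and Mup9. The aligner setting in the methods makes SOAPaligner report every hit of a repeated read, but how such reads were counted per gene is not given in the sources used here, and the reference genome is from another strain than the mice. Most stretches of Mup3, and about as many unique as shared stretches of Mup20, can be told from other genes, while the split of reads between the other 8 genes is uncertain. Whether a shared read was counted for more than 1 gene is not known either, so the summed RPKM and the share of the 10 genes may be too high. The symbols of 8 of the 10 genes have also been used in the past for another Mup gene in RefSeq, so a name may not point to the same gene in other data.

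Sequence around the annotated start of transcription was available in RefSeq (GRCm38.p6) for 8 of the 10 genes, all but Mup1 and Mup20. It is shown for Mup9, Mup17 and Mup2, whose levels moved together, and for Mup10 and Mup3, whose levels had a narrower range. The level of Mup10 also went with those of Mup9, Mup17 and Mup2 (Pearson r of log2 values 0.78 to 0.83). Each runs on the minus strand up to a box of letters TATATAA, in capitals, that was picked after the sequences had been seen. They lie at chr4:60421974-60422043, chr4:61595848-61595917, chr4:60139874-60139943, chr4:60582176-60582245 and chr4:62087319-62087388.
Mup9: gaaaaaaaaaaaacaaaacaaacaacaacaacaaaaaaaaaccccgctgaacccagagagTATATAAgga
Mup17: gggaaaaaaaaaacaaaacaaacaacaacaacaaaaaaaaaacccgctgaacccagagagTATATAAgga
Mup2: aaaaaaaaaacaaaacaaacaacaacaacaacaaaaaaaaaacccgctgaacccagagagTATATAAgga
Mup10: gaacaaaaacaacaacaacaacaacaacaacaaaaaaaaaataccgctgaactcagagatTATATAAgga
Mup3: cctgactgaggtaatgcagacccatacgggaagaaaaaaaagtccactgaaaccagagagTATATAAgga

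The box was present, on either strand, in 7 of the 8 promoters, all but that of Mup7, which varied together with Mup9, Mup17 and Mup2, and in 3.24% of 32851 mouse promoters of the same length. The 60 bases before it were 41.7% A in Mup3 and 61.7% to 66.7% A in the other 6. In the 250 bases before the start, searched on both strands, the STAT5 letters TTCNNNGAA were in 0 of the 8 promoters and in 7.02% of all, and TATAAA was in 0 of 8 and in 12.4% of all. The glucocorticoid receptor letters TGTTCT were in 1 of 8, that of Mup3, and in 16.1% of all. A TATATAA followed by A would hold a TATAAA as well. These matches describe the sequence and were not tied to the levels.

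Whether the libraries were equally deep could not be settled. An estimate from the smallest values of each gene drew on 309 of 1141 genes in HS replicate 2 and on 889 in A10-FMT replicate 3. Values it left out may be those that a difference in depth would shift, so no conclusion is drawn from it. The number of reads is unknown and no counting interval can be given. The defining hepatocyte markers were high in every library, with 8 of 8 in the table. In Con replicate 3, 95.3% of 858 genes on which the other 2 Con libraries differed lay between those 2, and in A10 replicate 3 this held for 93.6% of 577 genes, against at most 72.6% in any other library. Whether these 2 libraries are independent of the rest of their group was not tested. Con-FMT replicate 3 held 17689 RPKM of 10 pancreatic acinar genes, and the other 17 libraries held 14.1 to 50.1 RPKM. The main results that rest on these 3 libraries are given with and without them. In whole tissue, fewer hepatocytes and less RNA per hepatocyte cannot be told apart.

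The 10 genes made up between 17.4% and 35.5% of all RPKM in a liver library. The share was 34.1%, 22.7% and 25.8% in Con and 17.4%, 24.8% and 24.7% in A10. It was 23.5%, 20.6% and 18.9% in HS and 21.3%, 20.1% and 24.9% in HS+A10. It was 24.5%, 32.7% and 35.5% in A10-FMT, while Con-FMT was at 21.7%, 24.7% and 19.4%. A10-FMT had the highest share (30.9% ± 5.73, SD, n = 3) and Con came next (27.5% ± 5.89). A10 (22.3% ± 4.25), HS+A10 (22.1% ± 2.48) and Con-FMT (21.9% ± 2.68) were close to each other, and HS had the lowest mean. All 3 A10-FMT libraries were above the 3 HS libraries, and no other pair of groups compared here was free of overlap. The summed RPKM of the 10 genes was 1.61-fold higher in A10-FMT than in HS (exact permutation p = 0.1, two-sided, the smallest that 3 against 3 libraries allow). It was 0.707-fold in HS relative to Con (exact permutation p = 0.2) and 1.51-fold in A10-FMT relative to Con-FMT (exact permutation p = 0.2), with overlap in both. The first ratio was 0.680 without Con replicate 3 and the second 1.41 without Con-FMT replicate 3, and the mean shares were then 28.4% in Con and 23.2% in Con-FMT.

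**Figure D1:**
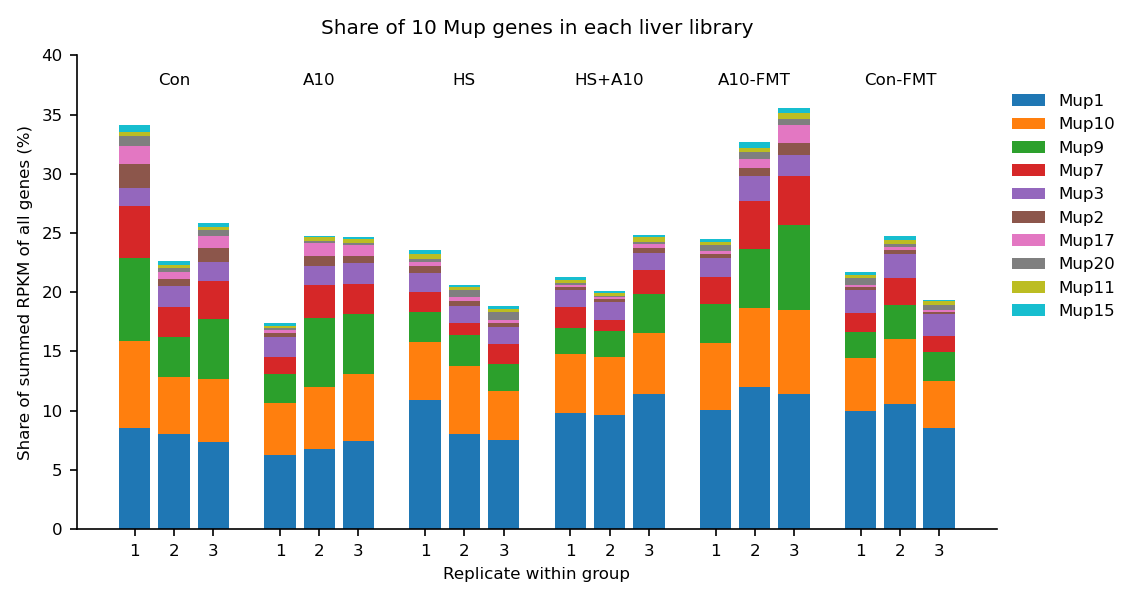
The share of each of 10 Mup genes in the summed RPKM of all genes (vertical axis, %) is stacked for each of 18 liver libraries, 3 in each of 6 groups. The tallest bars are A10-FMT replicates 3 and 2 (35.5% and 32.7%) and Con replicate 1 (34.1%), and the lowest is A10 replicate 1 (17.4%).

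Mup1 had the highest RPKM of all genes in every library, and 5 of the 10 genes were among the 10 most abundant liver mRNAs by mean. The level of Mup1 was 68877, 60466 and 55703 RPKM in Con, 45112, 50505 and 55099 RPKM in A10 and 80591, 58137 and 51889 RPKM in HS. It was 70442, 68456 and 82066 RPKM in HS+A10, 74135, 96397 and 91496 RPKM in A10-FMT, and Con-FMT was at 72486, 80075 and 59631 RPKM. The A10 libraries were the lowest group and did not overlap Con, and A10-FMT was the highest group. Mup1 passed the test in 0 of 6 comparisons, with the smallest adjusted p for A10-FMT against HS (log2 change 0.48 ± 0.17, SE, limma adjusted p = 0.0545).

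In the other 9 genes the spread between libraries differed widely. Mup3 was the steadiest, with a 1.67-fold range over 18 libraries, and Mup10 (2.12-fold) and Mup11 (2.36-fold) were close to Mup1 (2.14-fold). Mup9 ranged 3.59-fold, Mup7 5.37-fold, Mup15 5.72-fold, Mup20 10.2-fold, Mup17 14.3-fold and Mup2 16.3-fold. The 2 least abundant of the 10, Mup11 and Mup15, were at 1554 to 3668 RPKM and 764 to 4369 RPKM, and Mup11 passed the test in 0 of 6 comparisons, with a smallest limma adjusted p of 0.244. By group mean, 6 genes were highest in A10-FMT and 4 in Con, while 3 were lowest in A10, 3 in Con-FMT, 2 in HS and 2 in HS+A10.

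**Figure D2:**
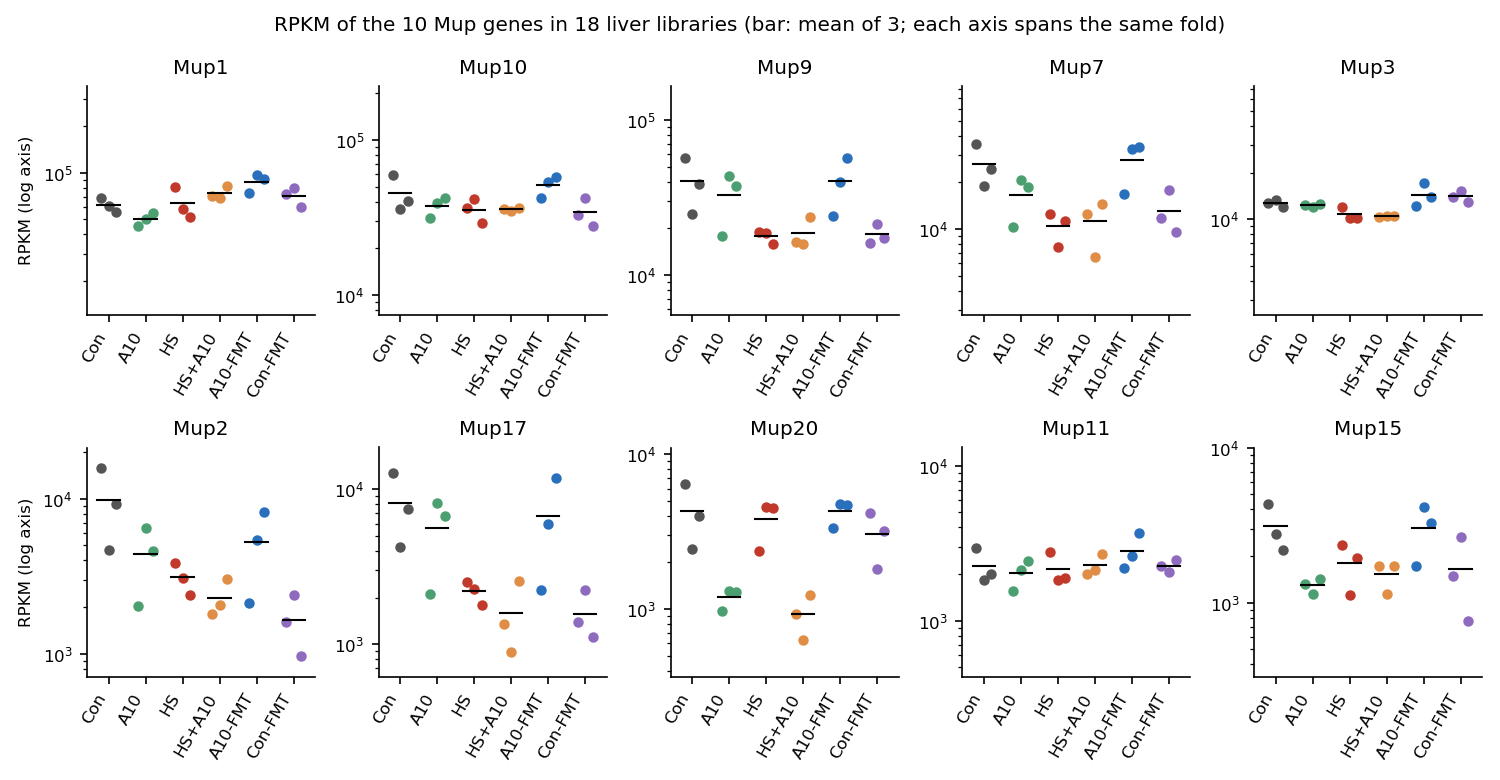
RPKM of each of the 10 Mup genes on log axes, with 1 point per library, 6 groups of 3 on the horizontal axis and a bar at each group mean. Mup3 stays between 10232 and 17063 RPKM, Mup20 lies between 628 and 1313 RPKM in A10 and HS+A10 and at 1801 RPKM or more elsewhere, and Mup9, Mup7, Mup2 and Mup17 have wide spreads within Con, A10 and A10-FMT.

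HS was compared with Con to ask what the high-fat diet and STZ changed. Two-sided limma tests on log2(RPKM + 1) covered 10204 genes, those that averaged 1 RPKM or more over the 18 libraries, and all 10 Mup genes were among them. A gene was called where its adjusted p fell below 0.05. Mup7 and Mup9 were called, both lower in HS, so 2 of 10 were lower and 0 higher. Of all tested genes 1.87% were called lower and 17.7% were called in either direction. Mup7 was at 35381, 19118 and 24452 RPKM in Con and at 12583, 7656 and 11264 RPKM in HS (log2 change -1.31 ± 0.37, SE, adjusted p = 0.0269). Mup9 was at 56659, 24857 and 38929 RPKM in Con and at 18809, 18542 and 15934 RPKM in HS (log2 change -1.10 ± 0.36, adjusted p = 0.0439). For both genes every HS library was below every Con library, and Con replicate 1 was the highest of the 6.

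Mup17 and Mup2 had larger changes with larger errors. Mup17 was at 12820, 4261 and 7469 RPKM in Con and at 2535, 2271 and 1780 RPKM in HS (log2 change -1.77 ± 0.60, adjusted p = 0.0537). Mup2 was at 15763, 4696 and 9209 RPKM in Con and at 3869, 3090 and 2382 RPKM in HS (log2 change -1.53 ± 0.53, adjusted p = 0.0581). Neither was called, although the groups did not overlap. With Mup3, 5 of the 10 genes had all HS libraries below all Con libraries, where 4.17% of tested genes did so. The median log2 change was -0.56 over the 10 genes and 0.14 over all tested genes. Both calls rest on few libraries, since 0 genes were called without Con replicate 1, Con replicate 3 or HS replicate 2, 1 was called without HS replicate 1 or HS replicate 3, and 4 were called without Con replicate 2. The count was also 0 without a filter on low values and under quantile normalization. Without Con replicate 3 the change of Mup7 was -1.34 (adjusted p = 0.0648) and that of Mup9 -1.08 (adjusted p = 0.104). Marker lists of 3 other cell types also separated the groups, with all markers of each in the table and none at 0 throughout. Erythroid markers (4 genes) summed to 2885 to 10038 RPKM in HS and 1256 to 1971 RPKM in Con, stellate cell markers (6 genes) to 112 to 175 RPKM and 72.0 to 83.1 RPKM, and pancreatic acinar markers (10 genes) to 14.1 to 27.6 RPKM and 32.5 to 41.2 RPKM. Their part in these results was not tested.

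A10-FMT was compared with HS to ask what microbiota from AOS-dosed donors changed in mice with the same diet and STZ. The HS libraries are shared with the comparison above. Mup7, Mup9 and Mup3 were called higher, so 3 of 10 were higher and 0 lower. Of all tested genes 2.09% were called higher and 23.1% were called in either direction. Mup7 was at 16932, 32702 and 33780 RPKM in A10-FMT (log2 change 1.37 ± 0.37, SE, adjusted p = 0.0176). Mup9 was at 23970, 40108 and 57240 RPKM (log2 change 1.10 ± 0.36, adjusted p = 0.0367). For both, A10-FMT replicate 1 was the lowest of its group and still above every HS library.

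Mup3 rose less but with a small error. It was at 12141, 17063 and 13900 RPKM in A10-FMT and at 11941, 10232 and 10274 RPKM in HS (log2 change 0.40 ± 0.12, SE, adjusted p = 0.0233). All 10 genes had a positive change and 4 of them, Mup10 included, did not overlap HS, where 4.59% of tested genes lay above HS without overlap. Mup10 was at 41904, 53468 and 57368 RPKM in A10-FMT and at 36144, 41368 and 28889 RPKM in HS (log2 change 0.52 ± 0.20, adjusted p = 0.0711). The median log2 change was 0.55 over the 10 genes and -0.16 over all tested genes. The 10 genes are a large part of all RPKM, so the values over all tested genes are not independent of them. With libraries scaled to the same summed RPKM without Mup rows, 1426 of all tested genes were called in place of 2358. The medians were then 0.64 and -0.09, and 2 of the 10 genes were called, both higher. The number called was 0 without HS replicate 2, A10-FMT replicate 2 or A10-FMT replicate 3, 1 without HS replicate 3, and 6 without A10-FMT replicate 1. It was also 0 without a filter on low values and under quantile normalization. The 8 hepatocyte markers summed to 53037 to 63146 RPKM in A10-FMT and 47646 to 52941 RPKM in HS, and erythroid markers to 1135 to 2048 RPKM in A10-FMT. Other marker lists also lay apart without overlap. Markers of Kupffer cells and macrophages (6 genes) summed to 41.7 to 51.0 RPKM in A10-FMT and 61.3 to 104 RPKM in HS, those of stellate cells (6) to 87.2 to 111 RPKM and 112 to 175 RPKM, and those of endothelial cells (6) to 30.2 to 40.9 RPKM and 42.0 to 48.0 RPKM. Lymphocyte markers (6) summed to 1.85 to 2.46 RPKM and 2.65 to 3.29 RPKM, and pancreatic acinar markers (10) to 32.1 to 37.7 RPKM and 14.1 to 27.6 RPKM. The part of these cells in the result was not tested.

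Con-FMT was compared with HS as the control for the transfer itself, again with the same HS libraries. Mup3 was the only one of the 10 genes called, at 13958, 15295 and 12948 RPKM in Con-FMT, above all HS libraries (log2 change 0.38 ± 0.12, SE, adjusted p = 0.0272). Of all tested genes 4.61% were called higher, 23.6% were called in either direction, and 7.11% lay above HS without overlap, as 1 of the 10 did. The call was kept without Con-FMT replicate 3, the library with pancreatic RNA, and was lost without HS replicate 2, HS replicate 3, Con-FMT replicate 1 or Con-FMT replicate 2. It was also lost without a filter on low values, under quantile normalization and with only the groups compared in the model. Stellate cell markers summed to 86.4 to 103 RPKM in Con-FMT and 112 to 175 RPKM in HS, and their part was not tested. Mup7 was at 11761, 17829 and 9510 RPKM and Mup9 at 16104, 21357 and 17427 RPKM, both overlapping HS (log2 changes 0.29 ± 0.37 and 0.04 ± 0.36). The median log2 change was -0.01 over the 10 genes and -0.12 over all tested genes.

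A10-FMT and Con-FMT differ by the donors, and their comparison shares no library with HS. Mup17 and Mup9 were called higher in A10-FMT, so 2 of 10 were higher and 0 lower. Of all tested genes 6.72% were called higher and 18.8% were called in either direction. Mup17 was at 2248, 6022 and 11863 RPKM in A10-FMT, and Con-FMT was at 1387, 2242 and 1106 RPKM (log2 change 1.85 ± 0.60, SE, adjusted p = 0.0437). The lowest A10-FMT library was just above the highest Con-FMT library. Mup9 had a log2 change of 1.07 ± 0.36 (adjusted p = 0.0482). Mup2 (1.56 ± 0.53, adjusted p = 0.0517), Mup7 (1.08 ± 0.37, adjusted p = 0.0556) and Mup10 (0.58 ± 0.20, adjusted p = 0.0570) were above the threshold. Mup3, the only one of the 10 called against HS in both recipient groups, had a log2 change of 0.02 ± 0.12 between them. All 10 genes had a positive change, with a median log2 change of 0.78 against -0.03 over all tested genes. Without Con-FMT replicate 3 these medians were 0.57 and -0.02. The 3 A10-FMT libraries lay above the 3 Con-FMT libraries for 3 genes, where 12.1% of tested genes did so. Without Con-FMT replicate 3 the count of genes called was 0. It was also 0 without A10-FMT replicate 2, A10-FMT replicate 3 or Con-FMT replicate 1, and 5 without A10-FMT replicate 1 or Con-FMT replicate 2. Both calls were also lost without a filter on low values (Mup17 adjusted p = 0.0843, Mup9 adjusted p = 0.183) and with only the groups compared in the model (adjusted p = 0.0953 and 0.0785).

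**Figure D3:**
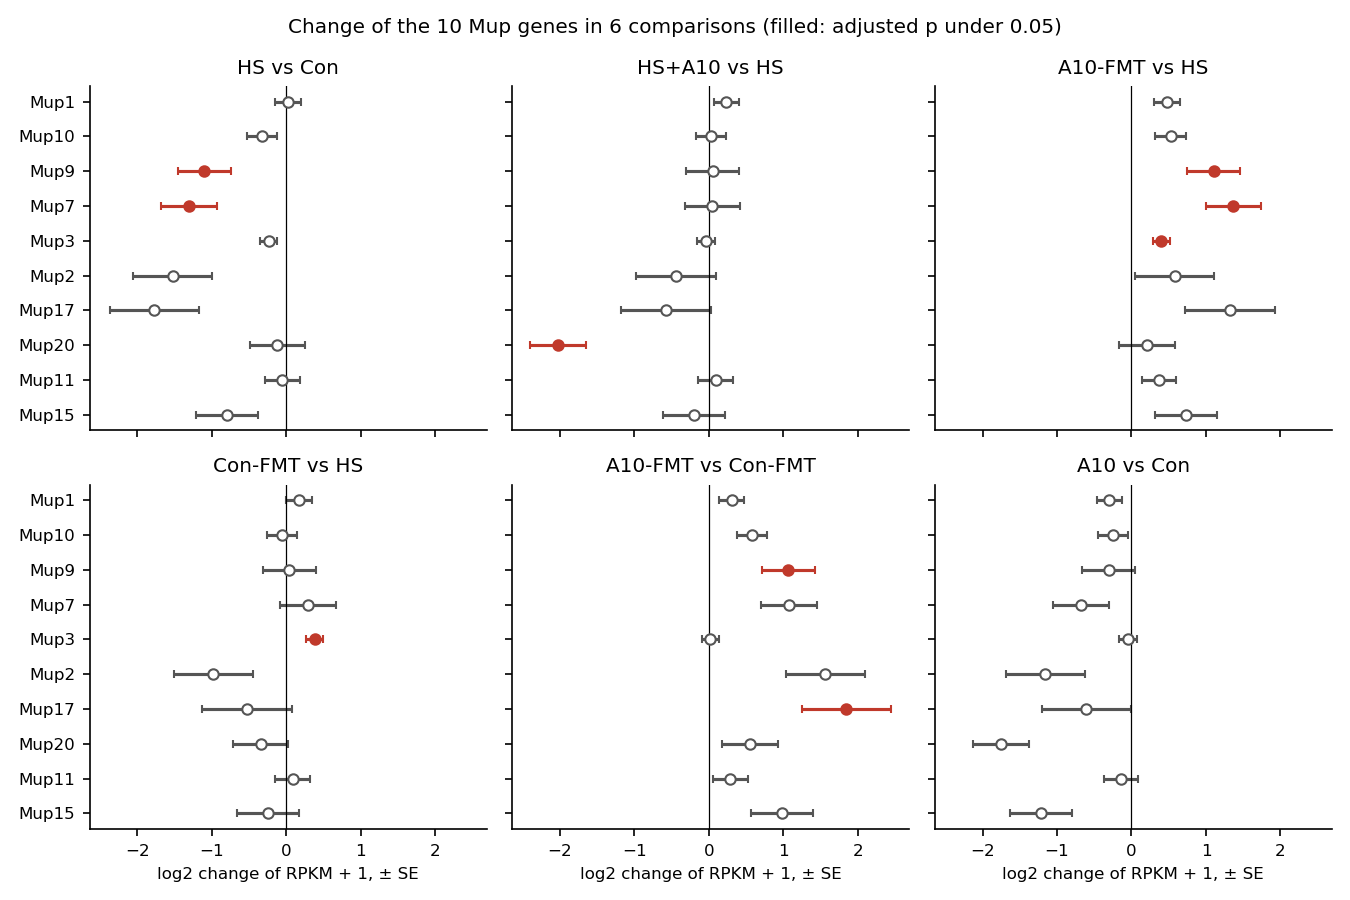
Log2 change of RPKM + 1 (horizontal axis) with its SE for each of the 10 Mup genes in 6 comparisons, filled where the limma adjusted p was under 0.05. The filled points are Mup9 and Mup7 below 0 in HS against Con, Mup20 below 0 in HS+A10 against HS, Mup9, Mup7 and Mup3 above 0 in A10-FMT against HS, Mup3 in Con-FMT against HS, and Mup9 and Mup17 in A10-FMT against Con-FMT.

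HS+A10 was compared with HS to ask what AOS given to the mice themselves changed under the high-fat diet and STZ. Of the 10 genes Mup20 alone was called, and it was lower. Of all tested genes 4.37% were called lower and 7.32% were called in either direction. Mup20, the darcin gene, was at 929, 628 and 1230 RPKM in HS+A10 and at 2367, 4565 and 4515 RPKM in HS (log2 change -2.03 ± 0.37, SE, adjusted p = 0.00705). Every HS+A10 library was below every HS library, as for 15.7% of tested genes, and the ratio of the means was 0.243. The markers of 3 cell types separated the groups as well, at 55.5 to 67.2 RPKM in HS+A10 and 42.0 to 48.0 RPKM in HS for endothelial cells, 53355 to 55954 RPKM and 47646 to 52941 RPKM for hepatocytes, and 2.21 to 2.58 RPKM and 2.65 to 3.29 RPKM for lymphocytes. Their part in this result was not tested. The call held without any 1 of the 6 libraries (adjusted p between 0.00228 and 0.0381) and passed the threshold under 15 of 16 alternatives, the exception being a model with only the groups compared (adjusted p = 0.0517). Mup7, at 12486, 6591 and 14542 RPKM in HS+A10, and Mup9, at 16346, 15955 and 23624 RPKM, overlapped HS. The other 9 genes had log2 changes between -0.58 and 0.23, with 5 of 10 genes positive and 5 negative.

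A10 against Con addresses the same labelled AOS dose without the high-fat diet and STZ, with none of the libraries of HS or HS+A10. Mup20 was at 968, 1313 and 1286 RPKM in A10 and at 6428, 2436 and 3988 RPKM in Con (log2 change -1.75 ± 0.37, SE, unadjusted p = 2.66e-04, limma adjusted p = 0.0905). The 3 A10 libraries were again below all 3 Con libraries, but the gene was not called after adjustment. Of the 10 genes 0 were called by limma, 3 had an unadjusted p under 0.05 (Mup20, Mup15 and Mup2, each lower), and 0.0686% of all tested genes were called. All 10 genes had a negative change, with a median log2 change of -0.46 against 0.07 over all tested genes. Their summed RPKM was 0.767-fold in A10 relative to Con (exact permutation p = 0.4), with overlap. The ratio was 0.737 without Con replicate 3 and 0.724 without A10 replicate 3. The A10 libraries lay below the Con libraries for 3 genes (Mup20, Mup1 and Mup15), where 5.27% of tested genes did so. Mup15 was at 1320, 1136 and 1423 RPKM in A10 and at 4369, 2793 and 2195 RPKM in Con (log2 change -1.22 ± 0.42, adjusted p = 0.238). Mup9, at 17801, 43476 and 37387 RPKM in A10, overlapped Con, as did Mup7 (10274, 20771 and 18799 RPKM), Mup17 (2101, 8144 and 6773 RPKM) and Mup2 (2040, 6451 and 4636 RPKM). In each of these 4 genes A10 replicate 1 was the lowest library of its group. Erythroid markers summed to 2112 to 2741 RPKM in A10 and 1256 to 1971 RPKM in Con, and their part was not tested. Without Con replicate 2, Mup20 was called (log2 change -2.10, adjusted p = 0.0226), and without Con replicate 3 and A10 replicate 3 together its change was -1.81 (adjusted p = 0.677).

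Across the study Mup20 was at 628 to 1313 RPKM in the 6 libraries of A10 and HS+A10 and at 1801 to 6428 RPKM in the 12 others. It was at 3360, 4803 and 4664 RPKM in A10-FMT and at 4174, 1801 and 3174 RPKM in Con-FMT. The recipients of microbiota from AOS-dosed donors were thus among the high groups for this gene, while the mice dosed themselves were low. None of the other 9 genes separated these 6 libraries from the 12 others. The share of all tested genes that separated them was not counted. This grouping was made after the values had been seen. Whether the effect of AOS differed with and without the high-fat diet and STZ was tested as an interaction. For Mup20 the difference was -0.28 ± 0.53 on the log2 scale (limma adjusted p = 0.866), an error wide enough to hide a sizeable difference. Of the 10 genes 0 were called for the interaction and 1 had an unadjusted p under 0.05, Mup1 (0.53 ± 0.24, SE, limma adjusted p = 0.370), where 0.00980% of all tested genes were called.

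The 10 genes did not vary as 1 block. Mup9, Mup7, Mup17 and Mup2 varied together over the 18 libraries (Pearson r of log2 values 0.80 to 0.96 over their 6 pairs), and their deviations from the group means did so too (r 0.80 to 0.97). Mup10 was nearly as close to these 4 genes (r 0.78 to 0.83, and 0.64 to 0.85 for the deviations). Mup20 was only loosely related to the other 9 (r 0.22 to 0.46). Mup1 was weakly related to those 4 genes over all libraries (r 0.08 to 0.36) but more closely within groups (r of deviations 0.57 to 0.71). The libraries share groups and the genes share reads, so these coefficients describe the table and carry no test. Mup1 and Mup9 differ at 3 of 540 coding positions, and few of their stretches of 50 bases are unique (5.24% and 7.85%). The ratio of Mup1 to Mup9 was 3.14 to 4.50 in the 9 libraries of HS, HS+A10 and Con-FMT and 1.16 to 3.09 in the 9 libraries of Con, A10 and A10-FMT. The split of the libraries by this ratio was noticed after the values had been seen, and the other pairs of genes were not examined for such a split.

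**Figure D4:**
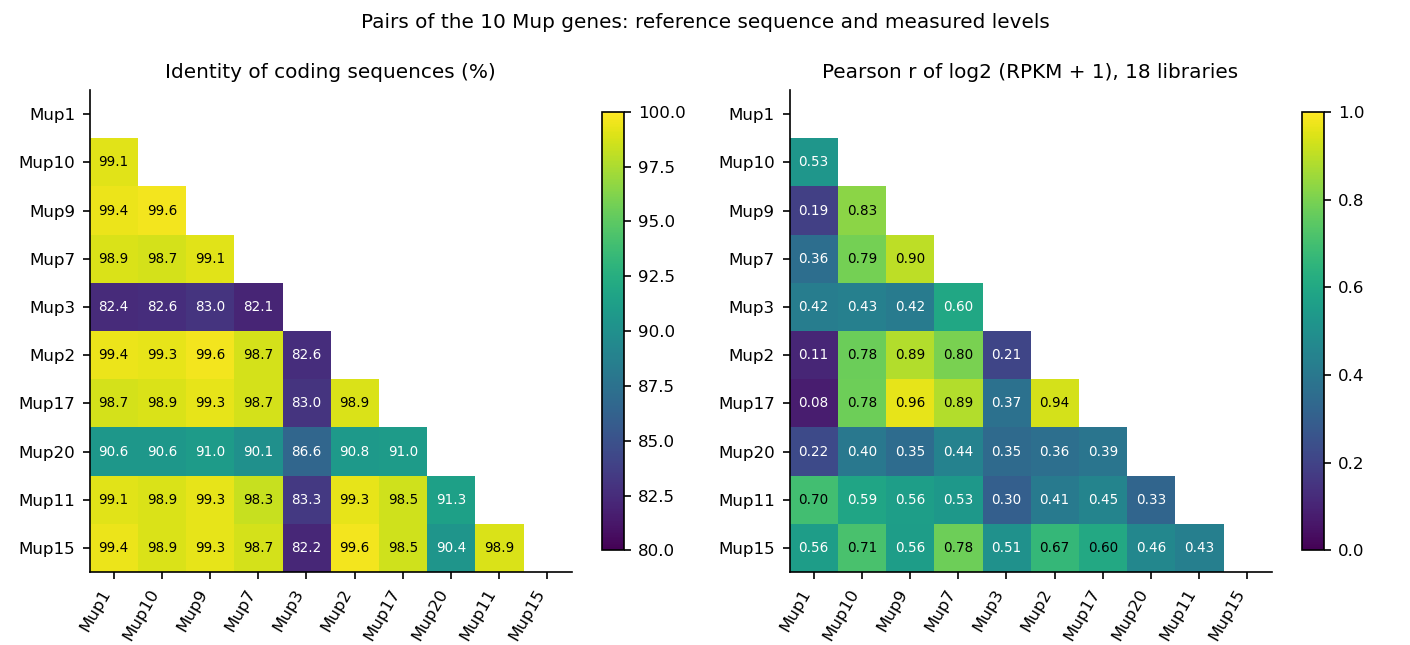
Left, identity of the coding sequences (%) for each pair of the 10 Mup genes in the reference; right, Pearson r of log2(RPKM + 1) for the same pairs over 18 libraries. Mup3 and Mup20 stand apart in sequence (82.1% to 91.3% identity with the other 8), and in the measured levels Mup9, Mup7, Mup17 and Mup2 form the closest set.

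Of the other 11 Mup rows 10 passed the filter on low values, and Mup6, with a mean of 0.487 RPKM, did not. Their counts stand beside 1.87% of all tested genes called lower in HS against Con, and 2.09%, 4.61% and 6.72% called higher in A10-FMT against HS, Con-FMT against HS and A10-FMT against Con-FMT. In HS against Con, 2 of these 10 were called lower (Mup19 and Mup18) and 0 higher, and in A10-FMT against HS 2 were called higher (Mup21 and Mup18) and 0 lower. Con-FMT against HS and A10-FMT against Con-FMT had 1 each, Mup21 and Mup16, both higher, and limma called 0 in HS+A10 against HS and in A10 against Con, with 1 and 3 at an unadjusted p under 0.05. Mup18, a row of low level, was at 6.79 ± 1.07 RPKM (SD, n = 3) in HS, 26.5 ± 17.6 RPKM in Con and 26.1 ± 17.0 RPKM in A10-FMT. Mup19, next in rank to the 10 genes and without a single unique stretch of 50 bases, was at 846 ± 298 RPKM (SD, n = 3) in HS and 4444 ± 2988 RPKM in Con (log2 change -2.23 ± 0.61, SE, adjusted p = 0.0227). Without Con replicate 3 neither Mup19 (-2.29, adjusted p = 0.0565) nor Mup18 (-1.78, adjusted p = 0.0713) was called in HS against Con. Without Con-FMT replicate 3 Mup16 was not called in A10-FMT against Con-FMT (0.60, adjusted p = 0.119), and Mup21 was called in Con-FMT against HS (1.05, adjusted p = 0.0470). Mup21, of whose stretches 80.7% were unique, was at 953 ± 405 RPKM (SD, n = 3) in HS, 2038 ± 533 RPKM in A10-FMT and 1759 ± 230 RPKM in Con-FMT. It was called higher than HS in both recipient groups (log2 changes 1.18 ± 0.31 and 0.99 ± 0.31, SE, adjusted p = 0.0158 and 0.0321). Its coding sequence is closest to that of Mup3 (94.75% identity), the gene of the 10 with calls in the same comparisons, and 83.6% to 87.5% identical to the other 9.

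Among all other genes, those whose level went most closely with the summed RPKM of the 10 over 18 libraries were Gm21320 (Pearson r 0.72, mean 1584 RPKM), Ces4a (r 0.68, 1.05 RPKM), Gna14 (r 0.64, 4.28 RPKM), Dio1 (r 0.62, 52.6 RPKM) and A2ml1 (r 0.61, 2.28 RPKM). Ces4a only just passed the filter of 1 RPKM, with group means from 0.22 RPKM in HS+A10 to 2.78 RPKM in Con. RefSeq lists Gm21320 as an older name of Mup22, so the closest gene is itself a Mup gene outside the symbol rule. Dio1 encodes a deiodinase that activates thyroid hormone.

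Among genes of growth hormone signalling and known regulators of Mup transcription, limma called 0 of 18 tested in HS against Con, with 1 at an unadjusted p under 0.05. There 1618 of all tested genes were higher and 191 lower. The growth hormone receptor Ghr had a log2 change of -0.23 ± 0.11 (SE, limma adjusted p = 0.159). In A10-FMT against HS, 2 of 18 were called higher and 0 lower, Ghr (0.55 ± 0.11, adjusted p = 0.00442) and the glucocorticoid receptor Nr3c1 (0.27 ± 0.07, adjusted p = 0.0142). There 213 of all tested genes were higher and 2145 lower. In Con-FMT against HS, 5 were called higher and 2 lower, where 470 of all tested genes were higher and 1943 lower, and Ghr was among the higher ones (0.40 ± 0.11, adjusted p = 0.0186). The largest changes there were in Socs3 and Socs2, inhibitors of cytokine and growth hormone signalling (log2 changes 2.35 ± 0.35 and 1.51 ± 0.41), and Stat5a, a transducer of growth hormone, was lower (-0.87 ± 0.17). Without Con-FMT replicate 3 the counts were 6 higher and 3 lower. In A10-FMT against Con-FMT, 2 were higher and 4 lower, where 686 of all tested genes were higher and 1228 lower, with Socs3 at -2.11 ± 0.35 and Socs2 at -1.48 ± 0.41, and without Con-FMT replicate 3 the counts were 2 and 3.

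Of 18 tested genes that are known to be more active in male liver, 5 were called lower in HS than in Con and 0 higher, where 191 of all tested genes were lower, and the list's median log2 change was -0.30 against 0.14 for all tested genes. Ugt2b38 (-1.38 ± 0.28), Hsd3b5, a male steroid-metabolizing enzyme (-1.26 ± 0.35), C4a, the sex-limited complement protein (-1.18 ± 0.30), and Cyp4a12a, a fatty acid hydroxylase (-0.84 ± 0.18), had the largest of these changes. Without Con replicate 3, 2 were called lower. In A10-FMT against HS, 4 of the 18 were called higher, with Hsd3b5 first (1.46 ± 0.35), and 3 lower, Cyp4a12b (-2.09 ± 0.64), Elovl3 (-1.75 ± 0.61) and Egfr (-0.59 ± 0.16). Of all 10204 tested genes 213 were called higher and 2145 lower there. In Con-FMT against HS, 3 of the 18 were called higher, C4a (1.59), Hsd3b5 (1.08) and Ugt2b38 (0.86), and 1 lower, Cyp2u1 (-0.55). There 470 of all tested genes were higher and 1943 lower, and without Con-FMT replicate 3 the list had 4 and 1. In A10-FMT against Con-FMT, 1 of the 18 was called higher and 2 lower, with C4a (-1.19) among the lower. There 686 of all tested genes were higher and 1228 lower. In HS+A10 against HS, where Mup20 was lower, 1 of the 18 was called lower and 0 higher. There 446 of all tested genes were lower. Of 10 tested genes known to be more active in female liver, 3 were called higher in that comparison and 0 lower, where 301 of all tested genes were higher, Cyp2b13 (2.57 ± 0.55), Acot3 (2.56 ± 0.34) and Cyp2a22 (1.76 ± 0.45). Cyp3a44 alone of that list was called in HS against Con, where 1618 of all tested genes were higher, and in A10-FMT against HS. Its changes were 2.26 ± 0.37 (2.28 without Con replicate 3) and -1.41 ± 0.37. It was called lower in Con-FMT against HS too (-1.36, and -1.41 without Con-FMT replicate 3). Fmo2 was called higher there (0.96, and 0.80 without Con-FMT replicate 3).

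Other abundant secreted liver proteins and other lipocalins were described for comparison with the Mup genes. Against HS, A10-FMT had 0 of 20 abundant secreted proteins higher and 3 lower, where 2145 of all 10204 tested genes were lower, the fibrinogen chains Fgg (-0.54 ± 0.15) and Fga (-0.52 ± 0.15) and the protease inhibitor Serpina3k (-0.41 ± 0.12). In HS against Con, 1 was higher, Apoe (0.48 ± 0.12), and 2 were lower, Ttr (-0.47 ± 0.16) and Serpina1c (-0.36 ± 0.10), and without Con replicate 3 the counts were 1 and 0. There 1618 of all tested genes were higher and 191 lower. In A10-FMT against Con-FMT, 0 were higher and 5 lower, where 1228 of all tested genes were lower, led by the heme carrier Hpx (-0.95 ± 0.31) and Fgg (-0.94 ± 0.15). Without Con-FMT replicate 3 the counts were again 0 and 5. Of 10 tested lipocalins other than Mup, limma called 0 in A10-FMT against HS, with 1 at an unadjusted p under 0.05, and 0 in HS+A10 against HS, with 3 at that level. In these comparisons 23.1% and 7.32% of all tested genes were called in either direction. In HS against Con, Rbp4, the carrier of retinol, was higher (0.44 ± 0.12) and Ambp, the precursor of alpha-1-microglobulin, was lower (-0.54 ± 0.10). Without Con replicate 3, Rbp4 was not called (0.45, limma adjusted p = 0.0535) and Ambp was (-0.52, limma adjusted p = 0.0164). The acute-phase lipocalins Lcn2 (-3.43 ± 0.94) and Orm3 (-2.32 ± 0.59) were the 2 called in A10-FMT against Con-FMT, and without Con-FMT replicate 3 the list had 0 higher and 2 lower there as well.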

How the data were processed

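The authors enriched liver mRNA with oligo(dT), sequenced it on an Illumina instrument, mapped reads with SOAPaligner and deposited RPKM values with 2 decimals per gene and library. The submitters' processing notes name mm10 and Bowtie 0.12.2, and how both tools were combined is not given in the sources used here. The authors' DEGseq test was not used. RPKM values were taken as deposited, without scaling. Levels were tested as log2(RPKM + 1) with limma 3.58.1 in R 4.3.3, in a model of all 18 libraries with a mean for each group and a trend of the variance with the level, for 10204 genes that averaged 1 RPKM or more. Adjusted p-values are Benjamini-Hochberg values within each of 6 comparisons and an interaction. Summed values were compared by exact permutation tests, whose smallest p is 0.1. The model was tested on simulated data. Sequences and positions came from GENCODE M21 and RefSeq (GRCm38), with 1 coding transcript per gene. Genes named are the 10 with the highest mean RPKM among those with a Mup number symbol, the 5 most alike by Pearson r, and called genes of 5 lists with the largest changes, at most 4 per list and comparison. The genes and lists were chosen with earlier results of these data known. Genes named outside this rule are Mup16, Mup18, Mup19, Mup21, Mup-ps12 and Mup-ps16, and list genes given in addition, which were chosen after their values were seen.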

Additional observations from a re-analysis of the deposited data

How the results depend on the processing

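Under the alternatives the summed RPKM of the 10 genes stayed within the spread between libraries in all 6 comparisons, while the number of genes called did not. Without a filter on low values, 0 genes were called in HS against Con (2 as reported), A10-FMT against HS (3), Con-FMT against HS (1) and A10-FMT against Con-FMT (2), with 17837 genes tested. Quantile normalization gave 0, 0, 0 and 1 in these comparisons, and it sets the change of Mup1 to 0 by construction because Mup1 is the highest gene in every library. In HS against Con, median scaling gave 1, scaling to the same summed RPKM 4, scaling to the same summed RPKM without Mup rows 1 and the 12 libraries of Con, HS, A10-FMT and Con-FMT 1. In A10-FMT against Con-FMT, scaling without Mup rows gave 4, the 12 libraries 1, and median scaling without Con-FMT replicate 3, an alternative chosen after seeing the data, 0. In Con-FMT against HS, the 12 libraries gave 0. With only the groups compared in the model, 0 genes were called in HS+A10 against HS (Mup20 adjusted p = 0.0517), 1 in A10-FMT against HS, 0 in Con-FMT against HS and 0 in A10-FMT against Con-FMT. Leaving out 1 library at a time gave 0 to 4 genes in HS against Con, 1 in HS+A10 against HS, 0 to 6 in A10-FMT against HS, 0 to 1 in Con-FMT against HS, 0 to 5 in A10-FMT against Con-FMT and 0 to 1 in A10 against Con. Apart from the case of Mup1 the cause of these changes was not tested. No called gene changed direction under any alternative. Leaving aside the settings that drop a library, 526 of 542 values of genes not called stayed within 1 SE of the value reported, and 13 of the others were from quantile normalization.

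The replicate numbers of the labels were taken as names only. Over 45 pairs of libraries with the same number in different groups, deviations from the group means correlated at -0.126 to 0.262, with 12 pairs above 0.1, and 10 of 18 libraries correlated best with their own number. With a replicate block the count in A10-FMT against Con-FMT was 0 in place of 2, and the block moved no other count by over 1.5 times. The number of reads is unknown. With 3 libraries per group and an error of 0.36 on the log2 scale, as for Mup9, changes well above that error can stay uncalled. Mup7 was not called in A10-FMT against Con-FMT at a log2 change of 1.08 ± 0.37 (SE, limma adjusted p = 0.0556).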

Other observations

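The table holds 2 rows of Mup pseudogenes, Mup-ps12 and Mup-ps16, which were looked at after their values had been seen. Mup-ps12 was at 47.6 ± 12.8 RPKM (SD, n = 3) in Con, 50.3 ± 12.2 RPKM in A10 and 48.6 ± 9.53 RPKM in A10-FMT, and at 17.9 ± 5.78 RPKM in HS, 23.7 ± 3.64 RPKM in HS+A10 and 16.5 ± 1.49 RPKM in Con-FMT. Mup-ps16 was at 14.7 ± 5.48 RPKM in Con, 15.0 ± 5.71 RPKM in A10 and 17.1 ± 6.35 RPKM in A10-FMT, and at 3.91 ± 1.28 RPKM in HS, 7.27 ± 1.39 RPKM in HS+A10 and 3.33 ± 1.15 RPKM in Con-FMT.

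Against Con, HS had lower values of both rows (log2 changes -1.38 ± 0.23 and -1.65 ± 0.33, SE, limma adjusted p = 0.00160 and 0.00477). A10-FMT had higher values of both against Con-FMT (1.49 ± 0.23 and 2.04 ± 0.33, limma adjusted p = 5.86e-04 and 7.05e-04). Against HS, A10-FMT had higher values of both as well (1.42 ± 0.23 and 1.86 ± 0.33, limma adjusted p = 0.00124 and 0.00192). They passed the threshold without Con replicate 3 (adjusted p = 0.00693 and 0.0218 in HS against Con) and without Con-FMT replicate 3 (adjusted p = 0.00235 and 0.00302 in A10-FMT against Con-FMT). In Con-FMT against HS neither row was called. Of all tested genes 1.87% were called lower in HS against Con. Those called higher were 2.09% in A10-FMT against HS and 6.72% in A10-FMT against Con-FMT. How reads shared between these rows and other Mup genes were counted is not given in the sources used here.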
